A study of Mus musculus with 4 samples.

Results

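Hox genes are transcription factor genes that carry a homeodomain. The genes described here are all 39 whose symbol is Hoxa, Hoxb, Hoxc or Hoxd followed by a number alone, so that antisense and other noncoding transcripts of the clusters were left out. They are 39 of the 30406 genes listed for all 4 libraries, with 11 in the HoxA cluster, 10 in HoxB, 9 in HoxC and 9 in HoxD, and the symbols alone chose them. The libraries are droplet single-cell RNA-seq of the hindlimb vessels of mice, in which the superficial saphenous vein and both adjacent popliteal lymphatic vessels were dissected and digested together. Each library pooled 3 mice, and all mice were on a C57BL/6J background. WT cells came from male animals of 9 months, labelled C57BL6, and TNF-Tg cells from male animals of 9 months that carry a TNF transgene (an established line used as a model of inflammatory-erosive arthritis), and both were gated on scatter without a label. The other libraries, tdT1 and tdT2, came from CSPG4-Cre;tdTomato mice without the TNF transgene and were gated on tdTomato, so that the cells they hold depend on where the Cspg4 promoter has driven Cre. For this cross the paper names male and female Cspg4-Cre mice, and the sex and exact age of the animals in each tdT pool are not given. There was 1 library for WT and 1 for TNF-Tg, so that genotype and library cannot be told apart.

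Hox genes lie in 4 clusters, and genes of the same number in different clusters (a paralogue group) descend from 1 ancestral gene. Along the embryonic body axis and along the limb, low-numbered genes are generally used nearer the head or the trunk, and high-numbered (posterior) genes nearer the tail or the tip of the limb. Connective tissue cells of the adult keep much of this pattern, so that fibroblasts from different body sites differ in the Hox genes they express, whereas in blood cells several HoxA and HoxB genes are best known from stem and progenitor cells. In the mm10 build that the submitters' processing notes name, the HoxA cluster lies on the minus strand of chromosome 6, HoxB on chromosome 11, HoxC on chromosome 15 and HoxD on chromosome 2, the last 3 on the plus strand. Among the genes the results turn on, Hoxa10 spans chr6:52231197-52240854, Hoxc9 chr15:102976439-102985099, Hoxc4 chr15:103018934-103036852, Hoxd4 chr2:74711929-74729160, Hoxd9 chr2:74697727-74700208 and Hoxb4 chr11:96318267-96321638, each a protein-coding gene in GENCODE.

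The promoters of 4 Hox genes with contrasting levels in these cells are shown as the 250 bases before the RefSeq start (build GRCm38.p6), 5′ to 3′ on the gene's strand. Hoxa10 had the highest mean level in the stromal classes, Hoxb4 was higher in leukocytes, Hoxd9 differed most between WT and TNF-Tg LMC-like cells among Hox genes with at least 30 UMIs over both and Hoxd13 had no unique molecular identifier (UMI) count in any class described here. Capitals mark a CCAAT or TATAAA box on either strand, and the lines of Hoxb4 and Hoxd9 hold neither.
Hoxa10, chr6:52234940-52235189, minus strand: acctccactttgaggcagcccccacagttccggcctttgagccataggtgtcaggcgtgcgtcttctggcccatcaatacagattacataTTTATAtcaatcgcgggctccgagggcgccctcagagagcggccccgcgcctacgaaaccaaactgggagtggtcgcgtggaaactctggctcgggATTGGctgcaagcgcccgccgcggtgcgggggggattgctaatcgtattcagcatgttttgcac
Hoxb4, chr11:96318017-96318266, plus strand: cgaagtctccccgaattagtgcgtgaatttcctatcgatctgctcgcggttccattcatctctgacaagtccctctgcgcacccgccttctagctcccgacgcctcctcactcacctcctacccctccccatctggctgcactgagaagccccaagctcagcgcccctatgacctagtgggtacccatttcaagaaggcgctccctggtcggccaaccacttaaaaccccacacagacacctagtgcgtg
Hoxd9, chr2:74697513-74697762, plus strand: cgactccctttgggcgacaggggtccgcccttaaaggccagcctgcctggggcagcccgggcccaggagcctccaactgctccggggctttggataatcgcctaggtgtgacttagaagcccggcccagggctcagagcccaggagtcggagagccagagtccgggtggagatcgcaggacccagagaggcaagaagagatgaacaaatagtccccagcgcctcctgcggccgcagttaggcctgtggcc
Hoxd13, chr2:74667975-74668224, plus strand: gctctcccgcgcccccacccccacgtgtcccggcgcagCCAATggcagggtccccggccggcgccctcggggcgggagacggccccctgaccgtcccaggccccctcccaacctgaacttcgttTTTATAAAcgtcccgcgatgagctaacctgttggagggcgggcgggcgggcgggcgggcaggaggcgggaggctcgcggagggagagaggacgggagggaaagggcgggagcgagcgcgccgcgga
Of the 39 genes, 22 matched the RefSeq promoter table, with 24 start sites. A CCAAT box (CCAAT, either strand) stood in 14 of these 24 windows and in 33.9% of all 32851 windows of the same length. The TATA box (TATAAA) stood in 4 of them and in 12.4% of all windows. The composite site of a Hox protein with its cofactor Pbx (TGATTNAT) stood in 2 of them and in 2.83% of all, and the posterior Hox core (TTTATNG, which can overlap a TATA box) stood in 2 and in 9.81% of all. The Hox windows were rich in CpG, with a median of 12.5 and a range of 2 to 35, against a median of 6 over all windows. The Hoxd13 window, of a gene without UMIs, held 31 CpG, the Hoxa10 window 20, the Hoxb4 window 14 and the Hoxd9 window 13.

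The libraries tdT1, tdT2, WT and TNF-Tg held 1504, 454, 5488 and 3391 cells, with a median of 6393.5, 4932.5, 12660 and 10605 UMIs per cell. Any pair of libraries shared 0 to 5 cell barcodes. The tdTomato reporter had 118 UMIs in tdT2 and 0 in WT and TNF-Tg, and is not in the gene list of tdT1. Cells were clustered without the Hox genes and named from marker lists, and levels are given in CPM, the UMIs of a gene in all cells of a class and library for every 1000000 UMIs of those cells. Each molecule gives 1 tag at its 3′ end, so that levels of different genes are not divided by length. A sum over a class cannot tell fewer expressing cells from less RNA per cell, and all intervals below are 95% and cover counting error only.

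The stromal cells comprised LMC-like cells (648, 95, 1392 and 513 cells in tdT1, tdT2, WT and TNF-Tg), VSMC-like cells (251, 108, 666 and 516) and an unnamed stromal class led by Col4a1, Col4a2 and Col15a1 (77, 39, 163 and 135). LMC and VSMC are the names that go with the study's marker lists for lymphatic muscle and vascular smooth muscle cells. The contractile genes that define smooth muscle were near 0 in both classes. Acta2, the smooth muscle actin gene, stood at 0.368, 0, 0.302 and 0.845 CPM in LMC-like and at 0, 1.89, 0.286 and 5.40 CPM in VSMC-like cells, and Myh11, the smooth muscle myosin gene, stood at no more than 0.123 and 1.91 CPM. The 9 contractile and mural genes of the list summed to 30.8, 39.6, 22.7 and 15.9 CPM in LMC-like and to 42.9, 85.0, 56.3 and 56.9 CPM in VSMC-like cells. Prrx1, a transcription factor of limb mesenchyme, stood at 511, 589, 444 and 348 CPM in LMC-like and at 760, 572, 586 and 406 CPM in VSMC-like cells. The 2 classes are therefore called by their marker lists alone. In the unnamed stromal class, 81 cells of WT and 43 of TNF-Tg were called doublets, that is, droplets with more than 1 cell, and its Hox genes are given only in passing.

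Hox UMIs were found for 35 of the 39 genes, with totals of 3447, 456, 8133 and 2972 UMIs over the libraries in the same order. In stromal cells, 34 of the genes had a UMI, 13 of them with 1 to 20 UMIs over the 4 libraries. Hoxb13, Hoxd1, Hoxd12 and Hoxd13 had none in stromal, leukocyte or endothelial-like cells, and Hoxb8, with no stromal or leukocyte UMI, had 6 UMIs in endothelial-like cells of tdT1. The 13 genes that reached 5 CPM in at least 2 libraries of the same class, LMC-like or VSMC-like, are described in full below. The highest value of the other 26 in these classes was 7.15 CPM, that of Hoxa5 in VSMC-like cells of tdT1.

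**Figure D1:**
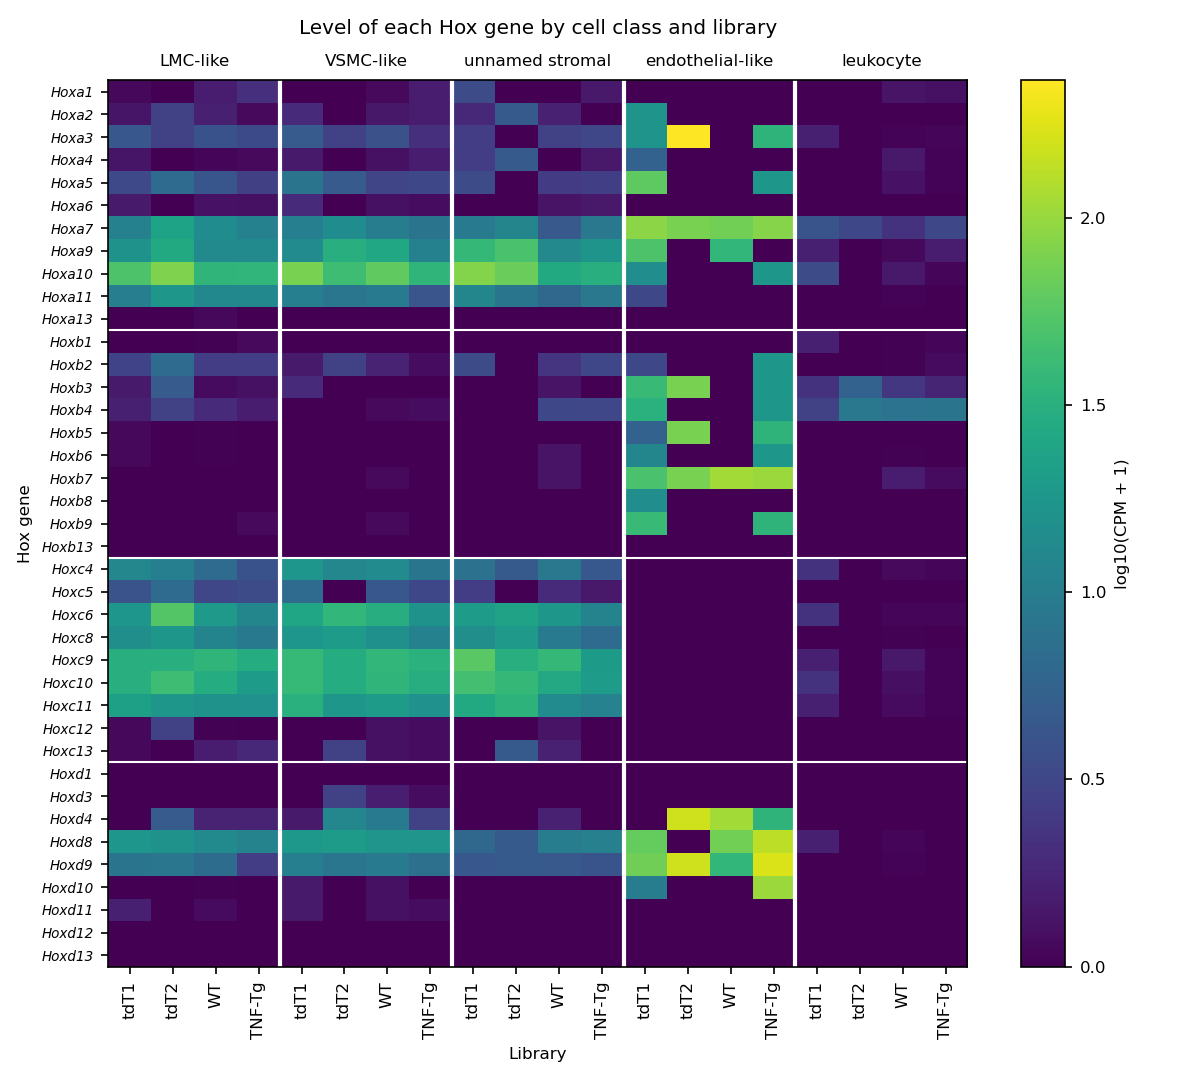
Level of all 39 Hox genes in 5 cell classes of the 4 libraries, as log10 of CPM plus 1, with genes in cluster order. Hoxc4, Hoxc6, Hoxc8 to Hoxc11, Hoxa7 to Hoxa11, Hoxd8 and Hoxd9 were high in the stromal classes. HoxB genes, Hoxc12 and Hoxc13 were near 0 there, and leukocytes were near 0 for nearly all genes other than Hoxb4, Hoxb3 and Hoxa7.

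The stromal Hox UMIs came mostly from posterior genes of groups 9 to 11. Hoxa10, a gene of the upper hindlimb segment in the embryo, had the highest mean, followed by the HoxC genes Hoxc9, Hoxc10, Hoxc6 and Hoxc11. Genes of groups 9 to 11 supplied 66.5, 59.5, 65.9 and 69.0% of all Hox UMIs of LMC-like cells (tdT1, tdT2, WT and TNF-Tg), and 67.4, 57.0, 65.7 and 66.2% of those of VSMC-like cells. Groups 5 to 8 supplied 25.7, 32.3, 27.6 and 24.9% in LMC-like cells, and groups 1 to 4 supplied 7.70, 7.69, 6.24 and 5.70%. Groups 12 and 13, used in the embryo at the limb's tip, supplied 2, 1, 16 and 6 UMIs in LMC-like cells, which was 0.09995, 0.513, 0.320 and 0.475% of the Hox UMIs. Most of these were of Hoxc13, with 26 UMIs over all stromal cells.

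Hoxa10 stood at 49.4, 79.2, 34.6 and 34.9 CPM in LMC-like cells of tdT1, tdT2, WT and TNF-Tg, and at 77.2, 41.5, 61.1 and 34.4 CPM in VSMC-like cells. WT and TNF-Tg lay below both tdT libraries in LMC-like cells, and TNF-Tg was the lowest in VSMC-like cells. Hoxa9, its neighbour and the group 9 gene of the cluster, stood at 15.6, 26.4, 12.7 and 12.2 CPM in LMC-like and at 12.9, 30.2, 24.6 and 10.0 CPM in VSMC-like cells. Hoxa11, the group 11 gene that marks the lower segment of the embryonic limb, stood at 9.20, 17.0, 11.7 and 11.7 CPM in LMC-like and at 9.53, 7.55, 8.71 and 3.16 CPM in VSMC-like cells, where TNF-Tg was the lowest. Hoxa7, of the trunk groups, stood at 9.94, 22.6, 13.2 and 9.85 CPM in LMC-like and at 9.53, 13.2, 8.85 and 7.07 CPM in VSMC-like cells. Hoxa13, the group 13 gene of this cluster, had 3 stromal UMIs in all, far fewer than the 588 of Hoxa11.

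The posterior genes of HoxC are used chiefly in the hindlimb among the embryonic limbs. Hoxc9 stood at 30.1, 30.2, 34.0 and 27.9 CPM in LMC-like cells and at 37.6, 28.3, 36.1 and 31.4 CPM in VSMC-like cells, a mean of 30.5 ± 2.56 and 33.4 ± 4.28 CPM (SD, n = 4 libraries). Hoxc10, a hindlimb-level gene of the embryo, stood at 29.9, 41.5, 28.1 and 19.4 CPM in LMC-like and at 37.2, 28.3, 34.4 and 28.7 CPM in VSMC-like cells. TNF-Tg was the lowest library for both genes in LMC-like cells and tdT2 in VSMC-like cells. Hoxc11 stood at 21.2, 17.0, 15.1 and 14.6 CPM in LMC-like and at 31.0, 17.0, 19.1 and 14.7 CPM in VSMC-like cells. Hoxc6, a trunk-level gene, stood at 16.6, 52.8, 17.6 and 11.3 CPM and at 23.4, 35.9, 28.6 and 15.3 CPM. TNF-Tg was the lowest of the 4 for Hoxc11 and Hoxc6 in both classes, and tdT2, the shallowest library, was the highest for Hoxc6. Hoxc8 stood at 14.0, 17.0, 10.7 and 8.02 CPM in LMC-like and at 16.7, 18.9, 14.6 and 9.86 CPM in VSMC-like cells, and Hoxc4, the lowest-numbered gene of the cluster, at 11.5, 9.43, 5.79 and 2.96 CPM and at 16.7, 11.3, 12.8 and 7.26 CPM.

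Of the HoxD genes, those in the middle of the cluster were expressed. Hoxd8 stood at 16.6, 15.1, 12.2 and 10.4 CPM in LMC-like and at 17.2, 18.9, 16.0 and 16.2 CPM in VSMC-like cells. Hoxd9 stood at 7.12, 7.55, 5.92 and 1.69 CPM in LMC-like cells, with TNF-Tg below the other 3, and at 9.53, 7.55, 8.71 and 6.51 CPM in VSMC-like cells. Its tdT2 value in LMC-like cells rests on 4 cells with a UMI. Hoxd10, Hoxd11, Hoxd12 and Hoxd13, the genes of the distal limb bud, had 4, 13, 0 and 0 stromal UMIs over all libraries. HoxB, the cluster best known from the hindbrain and blood, gave 1.35, 3.08, 1.34 and 1.58% of the Hox UMIs of LMC-like cells. Its highest gene there was Hoxb2, at 1.96, 5.66, 1.68 and 1.69 CPM.

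Among the 13 genes described in full, the mean levels over both classes ran from Hoxa10 (51.6 CPM) through Hoxc9 (32.0), Hoxc10 (30.9), Hoxc6 (25.2), Hoxc11 (18.7), Hoxa9 (18.1), Hoxd8 (15.3), Hoxc8 (13.7), Hoxa7 (11.8), Hoxa11 (9.81), Hoxc4 (9.73) and Hoxd9 (6.82) to Hoxd4 (3.39). Hoxa5, not one of the 13, lay between Hoxd9 and Hoxd4 at 3.55 CPM. In LMC-like cells the lowest Hoxa10 library (34.6 CPM) lay just above the highest Hoxc9 library (34.0 CPM). For every other pair of neighbours among the 13, and for this pair in VSMC-like cells, the ranges over the 4 libraries overlapped. Hoxa10 had a mean of 49.5 ± 21.0 CPM in LMC-like and 53.6 ± 19.4 CPM in VSMC-like cells (SD, n = 4 libraries), a wider spread than that of Hoxc9. Hoxc6, at 24.6 ± 19.1 CPM in LMC-like cells, had tdT2 far above the other 3.

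**Figure D2:**
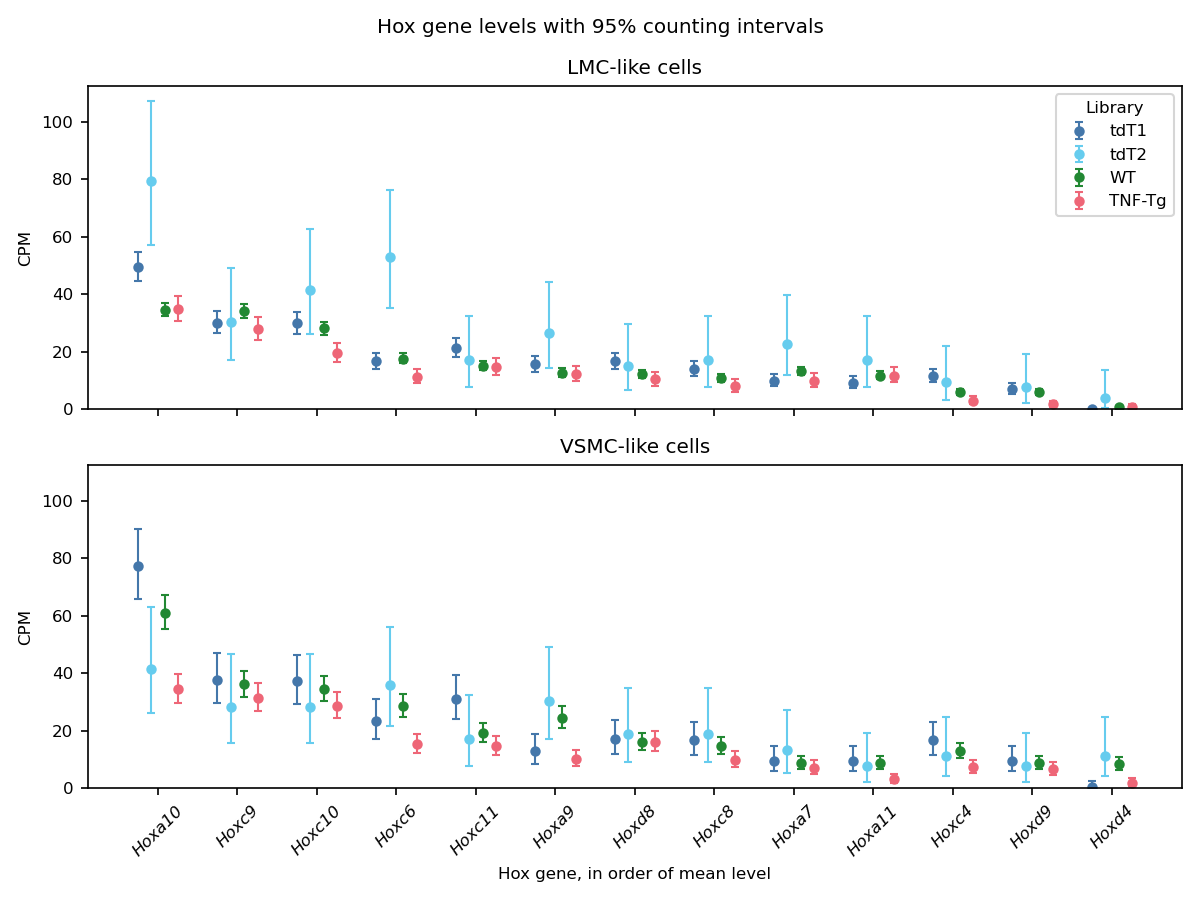
Level in CPM of 13 Hox genes in LMC-like and VSMC-like cells, 1 point per library with its 95% counting interval. Hoxa10 reached 79.2 CPM in LMC-like cells of tdT2, and the TNF-Tg point was the lowest or close to it for most genes, most visibly for Hoxd9 in LMC-like cells (1.69 CPM).

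The HoxC cluster supplied 51.6, 47.7, 52.8 and 49.2% of the Hox UMIs of LMC-like cells and HoxA 37.2, 42.1, 37.1 and 41.96%, whereas HoxD supplied 9.90, 7.18, 8.80 and 7.21%. All 39 genes together gave 246, 368, 216 and 178 CPM in LMC-like cells and 320, 281, 294 and 195 CPM in VSMC-like cells. The unnamed stromal class gave 329, 292, 180 and 151 CPM, with Hoxa10 at 82.9, 65.7, 26.6 and 29.4 CPM and Hoxc9 at 57.3, 29.2, 36.4 and 18.5 CPM. Leukocytes gave 16.1, 14.7, 13.4 and 12.1 CPM, and red blood cell-like cells gave no Hox UMI.

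**Figure D3:**
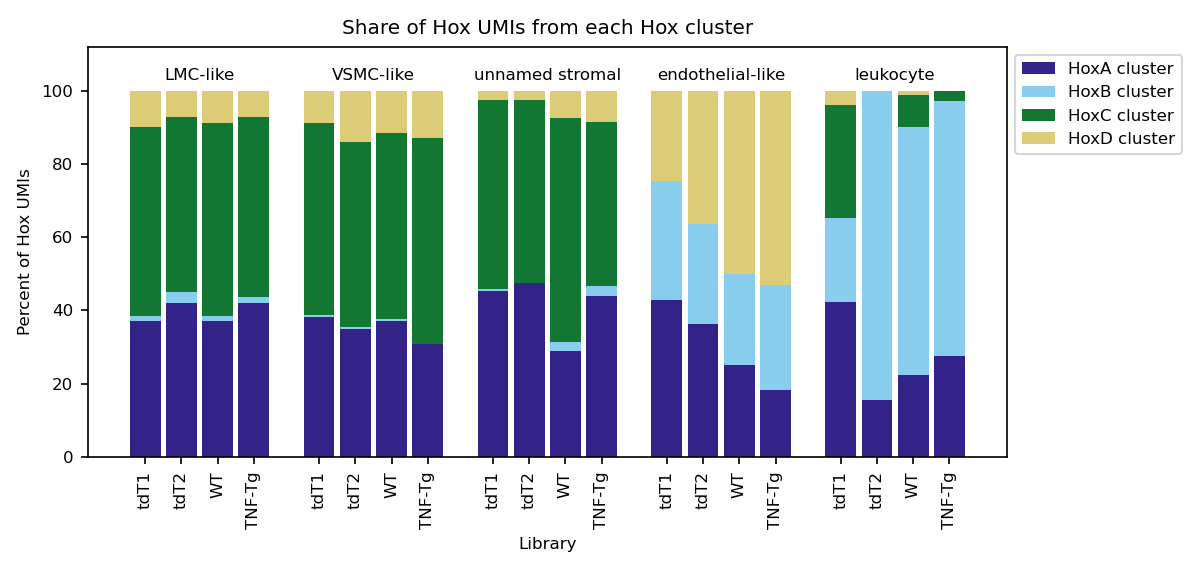
Share of Hox UMIs (percent) from the HoxA, HoxB, HoxC and HoxD clusters in each cell class and library, as stacked bars that sum to 100. HoxC supplied 47.7 to 52.8% in LMC-like cells, none in endothelial-like cells, and HoxB supplied 67.9 to 84.6% in leukocytes of tdT2, WT and TNF-Tg. The 84.6% is that of tdT2, where 11 leukocytes held a Hox UMI.

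In single cells the posterior genes were counted by the share of cells with a UMI. After each cell was thinned to 3000 UMIs, a UMI of groups 9 to 13 was found in 35.3, 52.8, 35.3 and 32.4% of LMC-like cells and in 45.5, 39.7, 44.1 and 31.4% of VSMC-like cells (tdT1, tdT2, WT and TNF-Tg). Shallower cells were left out, 144, 23, 1 and 4 of the first class and 95, 30, 97 and 79 of the second. Without thinning the shares were 68.5, 60.0, 84.1 and 75.2% of LMC-like and 59.4, 47.2, 70.7 and 60.7% of VSMC-like cells. In leukocytes, taken as the background, the thinned shares were 0.794, 0, 0.421 and 0.157% (0 of 117 cells in tdT2, an interval that reaches 3.104%) and the unthinned ones 3.33, 0, 1.44 and 0.671%. How much of these leukocyte shares came from free RNA was not tested. The median depth was 14038, 5383, 16178 and 12339 UMIs in LMC-like cells and 4318, 4552, 11933 and 10316 UMIs in leukocytes. Hoxa10 alone was found in 11.7, 13.9, 9.85 and 10.4% of thinned LMC-like cells and in 23.7, 11.5, 15.5 and 8.92% of thinned VSMC-like cells. The mean number of Hox genes per thinned LMC-like cell was 0.714, 0.958, 0.639 and 0.570, against 0.00794, 0.0171, 0.0368 and 0.0319 per leukocyte.

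To ask how the stromal code compares with that of the leukocytes dissected with the vessels, UMIs summed over stromal cells (976, 242, 2221 and 1164 cells) were set against those summed over leukocytes (210, 173, 2851 and 2087) in each library with edgeR's quasi-likelihood test, the library as a block and Benjamini-Hochberg adjustment over all genes at 0.01. Among the 18 Hox genes that passed the filter on low counts, 16 were higher in stromal cells and 1, Hoxb4, was lower. Over all 12794 genes tested, 22.3% were higher and 19.7% lower, and the median log2 difference was 0.08 against 6.76 for the 18. The filter admits a gene that is high in either class, so a gene at low level in both could not be tested, and 21 Hox genes were not. A gene that passed it through its stromal sums alone could only be called higher.

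Hoxc8 had the largest fitted difference, a log2 of 8.77 ± 0.46 (SE, edgeR adjusted p = 3.52e-05). With 688 stromal UMIs against 1 in leukocytes, its level over the 4 libraries was 665-fold higher with an interval of 119 to 26323. Hoxa11, with 588 UMIs against 2, was 284-fold higher (78.4 to 2354). Hoxc10 was higher by a log2 of 7.05 ± 0.48 (edgeR adjusted p = 6.74e-05) and Hoxd8 by 7.42 ± 0.58 (edgeR adjusted p = 0.00011). Hoxa10 was higher by 6.70 ± 0.50 (edgeR adjusted p = 9.29e-05), with 58.0, 61.5, 39.4 and 33.9 CPM over all stromal cells of the 4 libraries. Every stromal library lay far above every leukocyte library for these genes. Hoxc5, which shares 166 exonic bases with Hoxc10 but none near the 3′ end, had 151 stromal UMIs and none in leukocytes, where a floor of 3 UMIs over the 4 libraries makes it at least 48.7-fold higher. On the same floor Hoxd4 was at least 32.2-fold and Hoxc13 at least 8.38-fold higher in stromal cells, although neither entered the test. Hoxa7 had the smallest of the 16 differences, 2.53 ± 0.34 (edgeR adjusted p = 0.000903). Stromal RNA was also present in the leukocyte sums, in which the 8 broad stroma markers summed to 1006, 54.3, 273 and 110 CPM and the HoxC genes to 4.94, 0, 1.17 and 0.319 CPM. Both were highest in tdT1 and lowest in tdT2. The part of such RNA in the low leukocyte values of posterior genes was not tested.

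In leukocytes of tdT2, WT and TNF-Tg the Hox UMIs came mostly from anterior HoxB genes. Groups 1 to 4 supplied 34.6, 84.6, 70.7 and 72.5% of their Hox UMIs, and HoxB 23.1, 84.6, 67.9 and 69.8%, with tdT1 the lowest for both. A Hox UMI was found in 21, 11, 359 and 215 leukocytes of tdT1, tdT2, WT and TNF-Tg, so the tdT1 and tdT2 percentages rest on few UMIs. Hoxb4, a gene known for its role in blood stem cells, stood at 1.85, 7.92, 7.03 and 7.196 CPM (3, 7, 241 and 158 UMIs) in leukocytes, against 0.614, 1.89, 0.907 and 0.563 CPM in LMC-like cells. It was lower in stromal cells by a log2 of -2.94 ± 0.35 (edgeR adjusted p = 0.000562), and each library's leukocyte value lay above that of its LMC-like cells. Hoxb3, its neighbour, stood at 1.24, 4.52, 1.40 and 0.774 CPM in leukocytes, and the difference of -2.22 ± 0.52 missed the threshold (edgeR adjusted p = 0.0105).

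Hoxb4 was found in every leukocyte type with at least 200 cells, from 5.14 CPM in Ear2 dendritic cells to 9.88 CPM in patrolling monocytes with the 4 libraries summed, with 7.68 CPM in M1-macrophage and 6.11 CPM in M2-macrophage clusters. Hoxa7, in contrast, had 72 of its 99 leukocyte UMIs in Cd209a dendritic cells, 437 cells with 12.6 CPM (95% interval 9.84 to 15.8). Its value there was 10.3, 23.4, 10.99 and 13.7 CPM in tdT1, tdT2, WT and TNF-Tg. The tdT1 and tdT2 values rest on 23 and 12 such cells. All leukocytes of these 2 libraries held 5 and 2 Hoxa7 UMIs, so that only WT and TNF-Tg showed it beyond a few UMIs. In the M1-macrophage cluster no Hoxa7 UMI was found in 874 cells (95% interval 0 to 0.326 CPM), and it stood at 0.228 CPM in M2-macrophages. A proliferating cluster led by Top2a and Mki67 held it at 3.82 CPM (18 UMIs). Hoxb3 stood at 1.94 CPM in M2-macrophages and 1.85 CPM in M1-macrophages and was not found in Cd209a dendritic cells. Hoxb7 stood at 1.14 CPM in M2-macrophages (20 UMIs) and at 0 in Cd209a dendritic cells and monocytes. These sums over libraries rest mainly on WT and TNF-Tg and carry no test.

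**Figure D4:**
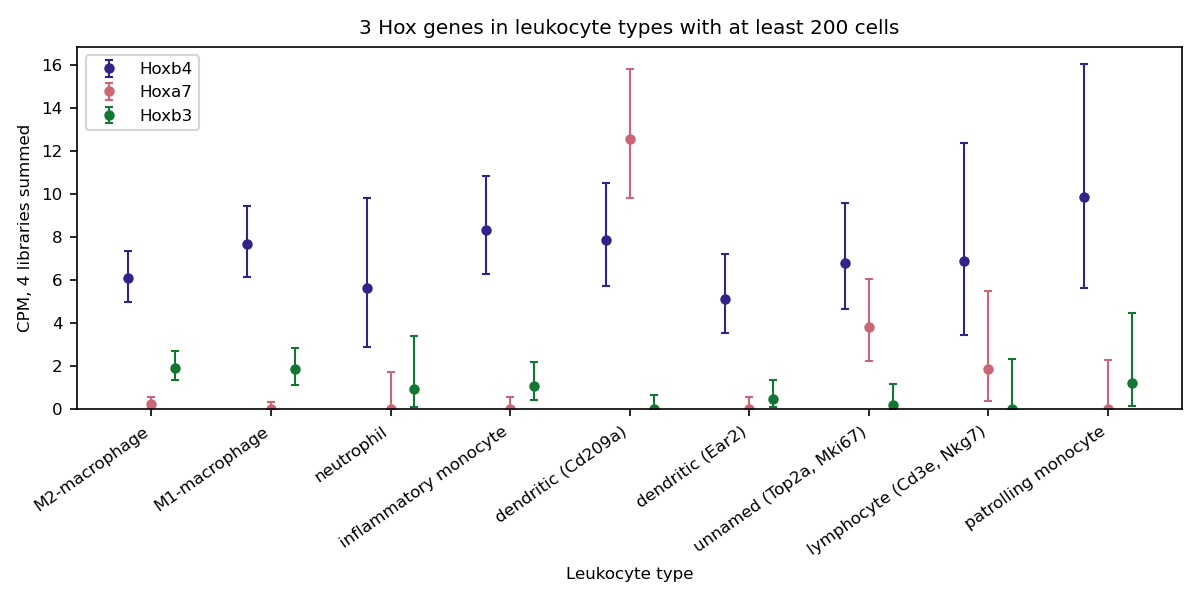
Level in CPM, 4 libraries summed, of Hoxb4, Hoxa7 and Hoxb3 in leukocyte types with at least 200 cells, with 95% counting intervals. Hoxb4 lay between 5.14 and 9.88 CPM in every type shown, whereas Hoxa7 reached 12.6 CPM in Cd209a dendritic cells and 0 in M1-macrophages.

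Endothelial-like cells, led by the vascular genes Vwf, Plvap and Pecam1 and the lymphatic gene Ccl21a, were few, with 32, 6, 2 and 6 cells, and carried a Hox set without HoxC. No UMI of the 9 HoxC genes was found in them in any library. In tdT1 the HoxC sum of LMC-like cells was at least 18.7-fold higher, against a floor of 3 UMIs in that library, and in the other 3 libraries the cells were too few to bound the difference above 1.73-fold. Hoxa7 stood at 88.2 CPM (39 UMIs), Hoxd9 at 70.1 CPM (31 UMIs), Hoxd8 at 63.3 CPM (28 UMIs) and Hoxa5 at 58.8 CPM (26 UMIs) in the tdT1 cells. HoxB genes were well represented there, with Hoxb7 at 47.5 CPM (21 UMIs), Hoxb9 at 38.5 CPM (17 UMIs) and Hoxb4 at 31.7 CPM (14 UMIs), and the HoxA, HoxB and HoxD clusters gave 249, 188 and 143 CPM. All Hox genes together reached 579, 848, 432 and 828 CPM, above the LMC-like value in each library, although only tdT1 held more than 6 such cells. Hoxa10, the leading gene of the stromal classes, stood at 13.6 CPM in these tdT1 cells. No test was made on so few cells.

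Lymphatic and venous stroma were dissected together, so LMC-like and VSMC-like cells of the same library share their mice and digestion. Of 17 Hox genes tested with the library as a block, 2 were lower in LMC-like than in VSMC-like cells and 0 were higher, against 6.45% lower and 6.55% higher of all 11193 genes (edgeR's quasi-likelihood test, Benjamini-Hochberg adjustment over all genes at 0.01). DESeq2 also called 0 higher, and at an unadjusted edgeR p under 0.05 2 were higher and 8 lower. The median log2 difference of the 17 was -0.37, with 13 below 0, and that of all genes was 0.02. The other 22 Hox genes did not pass the filter.

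Both genes that differed are group 4 genes. Hoxc4 was lower in LMC-like cells by a log2 of -0.99 ± 0.22 (edgeR adjusted p = 0.005). Its level was lower in LMC-like than in VSMC-like cells in all 4 libraries, from 11.5 against 16.7 CPM in tdT1 to 2.96 against 7.26 CPM in TNF-Tg. The call did not hold with DESeq2 (adjusted p = 0.0239) or, with edgeR, without the library block (adjusted p = 0.463), without WT (adjusted p = 0.0614) or without TNF-Tg (adjusted p = 0.0254). It was also lost when the classes came from a gate on single cells. Hoxd4 stood at 0, 3.77, 0.691 and 0.704 CPM in LMC-like and at 0.477, 11.3, 8.28 and 1.86 CPM in VSMC-like cells (1, 6, 58 and 10 UMIs), a log2 difference of -2.92 ± 0.49 (edgeR adjusted p = 0.000715). It was lower in LMC-like cells of every library, in tdT1 by 1 UMI, and most of the UMIs were from WT. Without WT it fell below the filter, and without the library block its adjusted p was 0.146. Hoxd4 shares 1154 exonic bases with Gm28230, 22 of them near the 3′ end, and only the list of tdT1 holds that gene. Without tdT1 the log2 difference was -2.96 (edgeR adjusted p = 0.000584).

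The remaining genes did not pass. Hoxb2 differed by 1.71 ± 0.52 (edgeR adjusted p = 0.0318), Hoxa11 by 0.67 ± 0.26 (edgeR adjusted p = 0.0864), Hoxd9 by -0.84 ± 0.29 (edgeR adjusted p = 0.0569) and Hoxc6 by -0.50 ± 0.17 (edgeR adjusted p = 0.0602). For Hoxa10 the difference was -0.40 (edgeR adjusted p = 0.161), and the 2 classes overlapped across libraries. No gene of groups 9 to 13 passed.

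TNF-Tg and WT were compared in each class as 2 libraries, without a test, and a gene was counted as changed in size where its CPM differed at least 1.5-fold among genes with 30 or more UMIs over both libraries. In LMC-like cells, 4 of 16 Hox genes were at least 1.5-fold lower in TNF-Tg and 0 were higher, where 14.4% of all 11571 genes were lower and 11.7% higher. In VSMC-like cells 7 of 14 were lower and 0 higher, where 28.2% of all 10560 genes were lower and 11.9% higher. The median log2 ratio was -0.29 in LMC-like cells against -0.03 over all genes, and -0.59 in VSMC-like cells against -0.20 over all genes. The 30 UMIs are a sum over both libraries, and in LMC-like cells WT alone can supply them, so a gene low in both was left out.

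Hoxd9 had the largest ratio in LMC-like cells, with 137 UMIs at 5.92 CPM in WT against 12 UMIs at 1.69 CPM in TNF-Tg, a WT level 3.50-fold higher (1.94 to 6.95). The tdT1 and tdT2 values, 7.12 and 7.55 CPM, lay near that of WT, although the tdT2 value rests on 4 cells with a UMI. In VSMC-like cells the ratio of TNF-Tg to WT for the same gene was 0.748 (0.479 to 1.15). Hoxc4 was 1.96-fold (1.23 to 3.27) and Hoxc6 1.56-fold (1.23 to 2.01) higher in WT LMC-like cells, and Hoxa5, with 76 and 13 UMIs, 1.79-fold (0.989 to 3.52). Hoxa10, by contrast, stood at 34.6 and 34.9 CPM, a ratio of 1.01 (0.872 to 1.16), and Hoxa11 at 11.7 CPM in both, a ratio of 1.00 (0.774 to 1.29).

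In VSMC-like cells Hoxd4 and the HoxA genes of groups 9 to 11 had lower values in TNF-Tg. Hoxa10 was 1.77-fold (1.49 to 2.12) higher in WT than in TNF-Tg, with 428 and 185 UMIs. For Hoxa9 the WT level was 2.44-fold (1.79 to 3.38) and for Hoxa11 2.75-fold (1.59 to 5.03) that of TNF-Tg. Hoxd4 was 4.45-fold higher in WT (2.25 to 9.77). Of the libraries also without the transgene, tdT2 stood at 11.3 CPM (6 UMIs). The other, tdT1, stood at 0.477 CPM (1 UMI), below the 1.86 CPM of TNF-Tg. Only the gene list of tdT1 holds Gm28230, which shares 1154 exonic bases with Hoxd4, 22 of them near the 3′ end. That list also holds another Hoxd4 entry, with 0 UMIs. The tdT1 value may not compare with the others, and the part of the gene list in it was not tested. Hoxc6 was 1.87-fold (1.44 to 2.45) and Hoxc4 1.77-fold (1.20 to 2.65) higher in WT, and Hoxc5 1.53-fold (0.738 to 3.37). The value of Hoxc4 depended on weighting, since the mean over cells gave a log2 ratio of -0.08 in place of -0.82, short of 1.5-fold. Hoxd8 stood at 16.0 and 16.2 CPM, a ratio of 1.01 (0.756 to 1.35), and Hoxc9 at a ratio of 0.871 (0.712 to 1.06).

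Set beside the 3 libraries without the TNF transgene, TNF-Tg lay below all 3 for 11 of the 16 Hox genes in LMC-like and for 9 of the 14 in VSMC-like cells, and above all 3 for 0. Over all genes with as many UMIs, TNF-Tg lay below the other 3 for 28.6% and above them for 26.8% in LMC-like cells, and for 39.9% and 23.6% in VSMC-like cells. The tdT libraries were gated on tdTomato, came from mice whose sex is not given and, for tdT1, were sequenced on another instrument than WT. They do not replace another WT library. All Hox genes together differed by a log2 of -0.28 (-0.37 to -0.19) in LMC-like and -0.59 (-0.70 to -0.49) in VSMC-like cells. HoxA differed by -0.10 in LMC-like and by -0.87 in VSMC-like cells, while HoxC differed by -0.38 and -0.45. The share of thinned VSMC-like cells with a UMI of groups 9 to 13 was 44.1% (39.98 to 48.3) in WT and 31.4% (27.0 to 35.9) in TNF-Tg, and that of LMC-like cells 35.3% (32.8 to 37.9) and 32.4% (28.4 to 36.7).

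**Figure D5:**
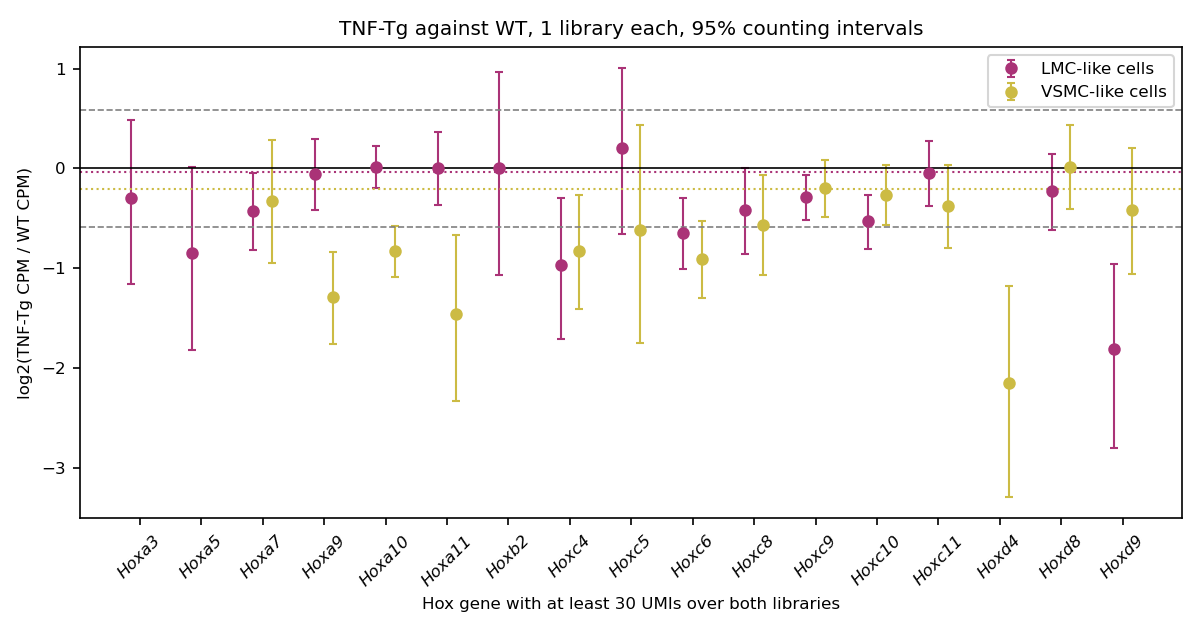
Log2 ratio of TNF-Tg to WT CPM for each Hox gene with enough UMIs, in LMC-like and VSMC-like cells, with 95% counting intervals, dashed lines at 1.5-fold and a dotted line at the median of all genes. No Hox gene passed the upper line, and Hoxd9 in LMC-like (-1.81) and Hoxd4 in VSMC-like cells (-2.15) lay lowest.

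Other values moved with the genotype in these sums. The 8 broad stroma markers, which include Prrx1, Col1a1 and Dcn, summed to 41921 CPM in LMC-like cells of WT and 31182 CPM in those of TNF-Tg, and to 46769 and 31542 CPM in VSMC-like cells. The 12 LMC markers, from which the class was named, summed to 22336 and 14872 CPM in LMC-like cells, and the 12 VSMC markers to 19211 and 11345 CPM in VSMC-like cells. The 8 broad leukocyte markers, each with a UMI in both libraries, summed to 54.3 and 60.5 CPM in LMC-like and to 84.7 and 153 CPM in VSMC-like cells, and red blood cell markers to 9.63 and 611 CPM in LMC-like cells. In VSMC-like cells the NK or innate lymphoid markers summed to 0.428 CPM in WT and 51.9 in TNF-Tg, the blood endothelium markers to 10.9 and 40.2, the tenocyte markers to 54.5 and 13.03, and the neutrophil markers to 283 and 115. In LMC-like cells these lists summed to 0.346 and 1.83, 2.72 and 16.5, 42.4 and 13.9, and 91.6 and 24.5 CPM in the same order. Their part in the lower Hox values of TNF-Tg was not tested, and genotype and library cannot be told apart.

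Hox proteins bind DNA with cofactors of the Meis, Pbx and Pknox families. Of 9 such genes, 8 were tested between stromal cells and leukocytes, 5 were higher in stromal cells and 2 lower, where 22.3% of all genes were higher and 19.7% lower. Among them, Pknox2 was higher by a log2 of 6.08, Meis2 by 4.58, Meis1 by 2.71 and Meis3 by 2.58, whereas Pbx2 was lower at -1.005 and Pbx3 at -1.01 (edgeR, adjusted p at 0.01). Meis2 stood at 45.3, 45.3, 30.9 and 32.1 CPM in LMC-like cells, lower in WT and TNF-Tg than in both tdT libraries. Between the 2 stromal classes 8 of the 9 were tested, and 1 was higher in LMC-like cells, Meis2 (0.59), and 1 lower, Pknox2 (-1.07). Over all genes 6.55% were higher and 6.45% lower.

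Among 13 genes of limb type and limb axes, all 10 tested were higher in stromal cells than in leukocytes, where 22.3% of all genes were higher. One of them is Prrx1, by which clusters were called stromal, so that its result was fixed in advance. Among the others were Gli3 (8.87), En1 (8.43), Lmx1b (8.22) and Hand2 (7.83), and the smallest of the 10 differences was that of Tbx5 (6.37). A gene that passed the filter on low counts through its stromal sums alone could only be called higher. The count of 10 is therefore not read as an enrichment over the 22.3%. Pitx1, which specifies the hindlimb, stood at 7.98, 5.66, 8.46 and 5.35 CPM in LMC-like cells and at 1.91, 0, 1.28 and 0 CPM in VSMC-like cells. Tbx5, best known from the forelimb and the heart, stood at 32.8, 24.5, 15.8 and 9.99 CPM in LMC-like and at 4.29, 0, 2.57 and 1.30 CPM in VSMC-like cells, above its hindlimb relative Tbx4, which was at 0.123, 0, 0.302 and 0.141 CPM in LMC-like cells. Every LMC-like library exceeded its VSMC-like partner for Pitx1 and Tbx5, although Pitx1 in LMC-like cells of tdT2 was only at the floor of 3 UMIs. Pitx1 (2.98), Tbx5 (2.82) and Tbx3 (2.59) were higher in LMC-like cells by edgeR at 0.01, and Prrx2 (-1.78) and En1 (-1.17) were lower. Thus 3 of the 10 tested were higher and 2 lower, where 6.55% of all genes were higher and 6.45% lower. Of the 17 Hox genes tested, 0 were higher and 2 lower.

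Polycomb and trithorax genes encode proteins that maintain silent and active Hox chromatin. Of 15 tested between stromal cells and leukocytes, 2 were lower in stromal cells and 0 higher by edgeR at 0.01. Both shares were below those of all genes, 19.7% lower and 22.3% higher. The 2 were Ezh2 (-1.51) and Suz12 (-0.74), both of the complex that methylates histone H3 at silent Hox genes. Of the same complex, Eed (-0.53, edgeR adjusted p = 0.0663) and Ezh1 (0.41, edgeR adjusted p = 0.0473) were not called. Between the 2 stromal classes, 1 of the 15, Cbx2 (-1.44), was lower in LMC-like than in VSMC-like cells and 0 were higher. Over all genes 6.45% were lower and 6.55% higher, so the count of 1 was near that share. Of 9 noncoding RNAs of the clusters, 3 were tested in each comparison. Against leukocytes 2 of the 3 were higher in stromal cells and 0 lower, where 22.3% of all genes were higher and 19.7% lower. Hotair, transcribed from the HoxC cluster, stood at 1.47, 1.89, 2.16 and 1.69 CPM in LMC-like cells and was higher in stromal cells than in leukocytes by a log2 of 5.90, as was Hoxd3os1 by 7.84. Hotairm1, from the HoxA cluster, stood at 14.2, 23.7, 22.01 and 22.7 CPM in leukocytes and differed by -0.83 (edgeR adjusted p = 0.0171), while Hottip had no UMI. Hoxd3os1 (-1.36) and Hotairm1 (-0.74) were lower in LMC-like than in VSMC-like cells, 2 of the 3 tested, and 0 were higher.

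Of 11 genes that flank the clusters, 7 were tested between stromal cells and leukocytes, of which 2 were higher and 2 lower, against the same 22.3% and 19.7% of all genes. Skap2, next to HoxA, was lower in stromal cells than in leukocytes by a log2 of -3.16 and Skap1, next to HoxB, by -7.01, while Hibadh (0.59) and Cbx5 (1.56) were higher (edgeR, adjusted p at 0.01). Evx1 and Evx2, the homeobox genes at the posterior ends of HoxA and HoxD, had no UMI.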

How the data were processed

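Single-cell 3′ RNA-seq was made with 10x Chromium droplets in 4 libraries of hindlimb vessel cells. The authors deposited raw UMI counts per gene and cell, filtered to cells, with Cell Ranger 3.1.0 in the file header of tdT1 and 6.0.1 in those of the other 3. The submitters' processing notes name build mm10, Cell Ranger 3.1.0 and Seurat 4.0.3. The Hox genes and all other lists were chosen with earlier results of these data known. Total counts were 14256192, 2357031, 68773605 and 37557627 UMIs for the libraries in the order tdT1, tdT2, WT and TNF-Tg, so that 3 UMIs, taken as the floor in a class, stood for 0.368, 5.66, 0.130 and 0.422 CPM in LMC-like cells. tdT1 was sequenced on a NextSeq and the other 3 on a NovaSeq instrument.

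Counts were integrated and clustered with Seurat 5.3.0 (R 4.3.3, 2000 variable features, 30 dimensions, resolution 0.5, 21 clusters, no Hox gene among the features). A cluster was named where at least 3 markers of a list were among its top 50 genes, and was called stromal or leukocyte by Prrx1 or Ptprc of at least 100 CPM and 3 times the other. These naming rules were set after the clusters had been seen, so that names can differ from the study's. Scrublet (scanpy 1.11.5) called 4, 0, 137 and 74 doublets in tdT1, tdT2, WT and TNF-Tg, which were kept here and removed in an alternative. Cells of low quality and clusters without a class (261, 22, 360 and 87 low-quality cells) entered no comparison.

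UMIs were summed per library and class. Classes were compared with edgeR 4.0.16 (filterByExpr, TMM, quasi-likelihood test, the library as a block because both sums come from the same animals, Benjamini-Hochberg adjustment at 0.01), and DESeq2 1.42.0 was an alternative. Each library is a pool of 3 mice, cells are not replicates, and the classes come from clustering the same cells, so that p-values describe their separation across libraries. TNF-Tg and WT were compared by exact conditional intervals of the ratio, without a test. Shares of cells carry exact Clopper-Pearson intervals and levels exact Poisson intervals. The test script was checked on simulated counts. Values in every library are given for Hox genes with at least 5 CPM in at least 2 libraries of the same class, LMC-like or VSMC-like, and other named genes come from fixed lists of cofactors, limb genes, chromatin regulators, neighbours of the clusters and cell type markers. Alternatives were another normalization, no filter, no library block, each library left out, no doublets, no low-quality cells, other resolutions, a gate on single cells, another threshold, the mean over cells, TMM scaling and other thinning depths. Positions are from GENCODE for GRCm38, promoters from RefSeq. Versions of the remaining tools were Python 3.11.15, numpy 2.4.6, pandas 2.3.3, scipy 1.17.1, matplotlib 3.10.9 and limma 3.58.1.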

Additional observations from a re-analysis of the deposited data

Results flagged for a closer look

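In 4 Hox genes the log2 ratio of TNF-Tg to WT had a different sign in LMC-like and VSMC-like cells, with 1 library per genotype and the difference not tested. For Hoxa10 the ratio was 0.01 in LMC-like and -0.83 in VSMC-like cells, and for Hoxa11 it was 0.0027 and -1.46. The counting intervals of these 2 genes did not overlap between the classes, but their LMC-like values were near 0 with intervals on both sides of it, so that a difference in size and not in direction was seen. The sign of the Hoxa11 value turned with TMM scaling. Hoxc5, with 69 and 36 UMIs over both libraries, was at 0.20 and -0.62, and Hoxd8 was at -0.23 and 0.02, with intervals that overlapped between the classes. Of these, the LMC-like sign of Hoxc5 and the VSMC-like sign of Hoxd8 also turned under an alternative.

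Hox UMIs were also found in cells that entered no comparison. All 39 Hox genes together gave 164 CPM in low-quality cells of tdT1, 131 in those of tdT2 and 75.2 in those of WT, above the 16.1, 14.7 and 13.4 CPM of leukocytes in the same libraries. A small tdT1 cluster of 23 cells led by Krt14, Acta2 and Myh11 gave 104 CPM.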

How the results depend on the processing

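No called difference changed direction. Among uncalled ratios of TNF-Tg to WT, the sign turned under at least 1 alternative for Hoxa3, Hoxa9, Hoxa10, Hoxa11, Hoxb2 and Hoxc5 in LMC-like and for Hoxa7 and Hoxd8 in VSMC-like cells. The mean over cells gave log2 ratios of 0.15 for Hoxa3, 0.25 for Hoxa9, 0.19 for Hoxa7 and -0.25 for Hoxd8, cluster resolution 0.8 gave -0.02 for Hoxa10 and Hoxc5, and TMM scaling gave -0.0019 for Hoxa11 and -0.00058 for Hoxb2. Of the stromal against leukocyte calls, the genes higher in stromal cells numbered 13 to 17 with each library left out in turn, and those lower 1 to 2. The lower genes were 2 with DESeq2, with RLE normalization and at a threshold of 0.05, Hoxb3 being added (adjusted p = 0.00412 with DESeq2 and 0.00843 with edgeR after RLE). Hoxc5 lost its call without WT (edgeR adjusted p = 0.0131) and without TNF-Tg (edgeR adjusted p = 0.0114), and Hoxb2 lost its call under 1 alternative. Between LMC-like and VSMC-like cells, 1 gene was higher at a threshold of 0.05 (Hoxb2). The genes lower there were 2, but 1 with DESeq2, 1 with the single-cell gate, 0 without the library block and 0 to 2 with each library left out (0 without WT and 1 without TNF-Tg). Without the library block the adjusted p of Hoxc4 was 0.463 and that of Hoxd4 0.146. TNF-Tg over WT by the mean over cells was -0.14 (all Hox) and -0.074 (groups 9 to 13) in LMC-like cells and -0.47 (all Hox) in VSMC-like cells. TMM scaling gave -0.41 (all Hox) and -0.40 (groups 9 to 13) in VSMC-like cells. By the mean over cells the VSMC-like ratio of Hoxc4 was -0.08 and that of Hoxa10 -0.57. Groups 9 to 13 summed to 177 CPM in tdT1 LMC-like cells under the gate and 147 CPM in TNF-Tg VSMC-like cells under TMM. Shares of cells with a UMI of these groups were 68.5, 84.1 and 75.2% in unthinned LMC-like cells of tdT1, WT and TNF-Tg, 59.4, 70.7 and 60.7% in unthinned VSMC-like cells, and 1.44 and 0.671% in unthinned leukocytes of WT and TNF-Tg. Thinned to 1500 UMIs they were 21.5, 19.8, 18.1 and 17.6% in LMC-like and 22.3, 15.5, 26.0 and 20.5% in VSMC-like cells of the 4 libraries. Depth limited tdT2 most, where 3 UMIs stood for 5.66 CPM in LMC-like cells.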
